A study of Homo sapiens with 9 samples.

Results

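S100 proteins are small calcium-binding proteins, and the 10 described here are those known from keratinocytes: S100A7, S100A8, S100A9, S100A2, S100A4, S100A6, S100A10, S100A11, S100A14 and S100P. They were chosen by a fixed list of gene symbols, with no threshold on measured values, from 21 S100 genes in a table of 21170 features. The choice was made with earlier results of these data known. All 10 had enough counts to be tested. RNA with poly(A) tails came from HaCaT cells, a human keratinocyte line that became immortal spontaneously, in 3 groups of 3 libraries. The FTO cells carried wild-type FTO, the mut-FTO cells an FTO mutant whose demethylase activity is disrupted, and the Vector cells an empty vector, so that all groups carried a construct. The FTO enzyme takes methyl groups off adenosines in RNA. The promoter that drives the constructs, and whether a group is a single clone, are not stated in the labels. Separate cultures are not stated for the replicates either, so the p-values reflect only how far these libraries spread, which may be technical.

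Most S100 proteins work as pairs that change shape when calcium binds through EF-hand motifs and then bind other proteins. S100A7, S100A8 and S100A9 are antimicrobial alarmins: they can leave the cell and signal through receptors such as RAGE and TLR4, and in psoriatic epidermis their levels are high. S100A10 and S100A11 bind annexins inside the cell, and most of the genes lie together in the epidermal differentiation complex, among the genes of the cornified envelope. In the RefSeq gene order, 14 S100 genes follow each other on chromosome 1 with no other protein-coding gene between them, S100A10 and S100A11 lie beside each other elsewhere on chromosome 1, and S100P is on chromosome 4.

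Promoters are shown for the 3 alarmins and for S100A4 and S100P, the genes called when 1 Vector library was left out. Each runs from 250 bases before the RefSeq start to 50 bases after it, 5′ to 3′ on the gene's strand, in build GRCh38.p14. The windows are chr1:153460602-153460901 for S100A7, chr1:153391139-153391438 for S100A8 and chr1:153545757-153546056 for S100A4 on the minus strand, and chr1:153357604-153357903 for S100A9 and chr4:6693628-6693927 for S100P on the plus strand. Capitals mark TATAAA, the TATA box, and TTNNGNAA, a motif of C/EBP factors, searched on both strands.
S100A7: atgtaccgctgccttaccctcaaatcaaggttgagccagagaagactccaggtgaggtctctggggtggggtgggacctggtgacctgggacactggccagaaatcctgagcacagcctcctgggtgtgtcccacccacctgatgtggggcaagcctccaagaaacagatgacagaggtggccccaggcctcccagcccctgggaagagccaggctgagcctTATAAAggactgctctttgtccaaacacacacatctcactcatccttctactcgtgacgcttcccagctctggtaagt
S100A8: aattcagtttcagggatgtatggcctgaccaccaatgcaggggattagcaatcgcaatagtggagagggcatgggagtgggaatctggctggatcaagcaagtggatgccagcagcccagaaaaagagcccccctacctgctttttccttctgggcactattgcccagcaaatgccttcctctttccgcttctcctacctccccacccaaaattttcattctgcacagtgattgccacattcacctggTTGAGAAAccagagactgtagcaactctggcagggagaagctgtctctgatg
S100A9: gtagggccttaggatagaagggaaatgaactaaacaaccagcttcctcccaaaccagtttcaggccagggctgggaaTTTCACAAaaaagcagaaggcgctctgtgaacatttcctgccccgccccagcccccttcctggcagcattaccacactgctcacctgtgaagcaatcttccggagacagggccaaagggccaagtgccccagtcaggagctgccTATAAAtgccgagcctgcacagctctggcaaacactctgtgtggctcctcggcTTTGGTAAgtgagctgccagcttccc
S100A4: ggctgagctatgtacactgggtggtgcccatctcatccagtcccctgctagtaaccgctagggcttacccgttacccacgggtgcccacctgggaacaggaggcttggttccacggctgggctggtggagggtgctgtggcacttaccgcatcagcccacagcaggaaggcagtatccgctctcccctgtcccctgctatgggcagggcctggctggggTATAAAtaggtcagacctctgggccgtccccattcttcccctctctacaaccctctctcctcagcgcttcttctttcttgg
S100P: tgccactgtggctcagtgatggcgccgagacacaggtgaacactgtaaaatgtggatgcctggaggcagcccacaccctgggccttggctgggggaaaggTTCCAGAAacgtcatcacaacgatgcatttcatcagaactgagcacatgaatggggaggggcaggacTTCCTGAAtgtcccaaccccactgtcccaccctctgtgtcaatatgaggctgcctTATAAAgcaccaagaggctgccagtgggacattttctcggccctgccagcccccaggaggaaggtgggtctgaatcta
TATAAA was found in 4 of the 10 members' promoters (S100A7, S100A9, S100A4 and S100P), against 11.5% of 35116 RefSeq promoters of the same length. In these 4 the match began 28, 29, 31 and 28 bases before the start. TTNNGNAA was found in 5 (S100A8, S100A9, S100A6, S100A11 and S100P), against 36.8% of all promoters. The AP-1 motif TGANTCA was found in S100A2 alone of the 10, against 7.71% of all promoters, and the STAT motif TTCNNNGAA in none of the 10, against 7.66%. These are matches of letters. S100A8 and S100A2 have several listed starts, of which the one nearest the GENCODE transcript was used. The RefSeq start of S100P lies 809 bases from the start of the GENCODE transcript that gives its length, that of S100A14 661 and that of S100A10 531 bases.

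No S100 member passed the test in any comparison. Of the 10, 0 were called in FTO against Vector, where 0.744% of the 13713 genes tested were called (0.306% higher and 0.438% lower). Likewise 0 were called in mut-FTO against Vector, with 7.78% of all genes (3.27% higher and 4.51% lower), and 0 in FTO against mut-FTO, with 2.33% (1.20% higher and 1.13% lower). DESeq2 called 0, 1 and 0 members, the 1 being S100P, against 364, 1680 and 751 genes in all. With limma-voom 0 members were called in each, against 94, 1054 and 263 genes. Without Vector replicate 3 the edgeR counts were 0, 1 and 0, the 1 being S100A4, against 3.41%, 15% and 10.2% of 13953 genes. The smallest adjusted p was 0.32 for S100A11 in FTO against Vector, 0.0796 for S100P in mut-FTO against Vector and 0.452 for S100A7 in FTO against mut-FTO (quasi-likelihood test of edgeR, Benjamini-Hochberg adjustment over all genes). At an unadjusted p under 0.05 there were 2, 4 and 0 members in the 3 comparisons, against 11.9%, 21.1% and 14% of all genes. The libraries of the groups did not overlap for 3, 3 and 2 members (2, 3 and 1 of them higher), against 21%, 24% and 29% of all genes. The median log2 fold change of the members was 0.21, 0.30 and −0.051, against −0.0020, −0.0012 and 0.0046 over all genes tested. Without Vector replicate 3 the members' medians were −0.044, −0.0027 and −0.067. The comparisons with Vector share its libraries. Intervals were wide: at 95%, the half-width of a member's log2 fold change ran up to 0.96.

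The libraries held 32222203 to 37846027 counts. FTO RNA stood at 69.6, 77.1 and 62.6 CPM (counts scaled to library size) in FTO libraries and 49.7, 82.7 and 64.3 CPM in mut-FTO libraries, against 18.4, 17.0 and 25.8 CPM in Vector libraries. FTO was therefore higher in all libraries of both groups than in any Vector library. Vector replicate 3 stood apart from the other Vector libraries, and many S100 values turn on it. Genes encoded by mitochondrial DNA took 14.97% of its counts, against 4.16% and 4.20% in the other Vector libraries. Of 13584 genes, 19.8% differed by over 2-fold between Vector replicate 3 and the mean of the other Vector libraries, and 5 of the 10 S100 members did. In mut-FTO replicate 2 the mitochondrial share was 7.45%, against 5.52% and 5.77% in the other mut-FTO libraries.

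**Figure D1:**
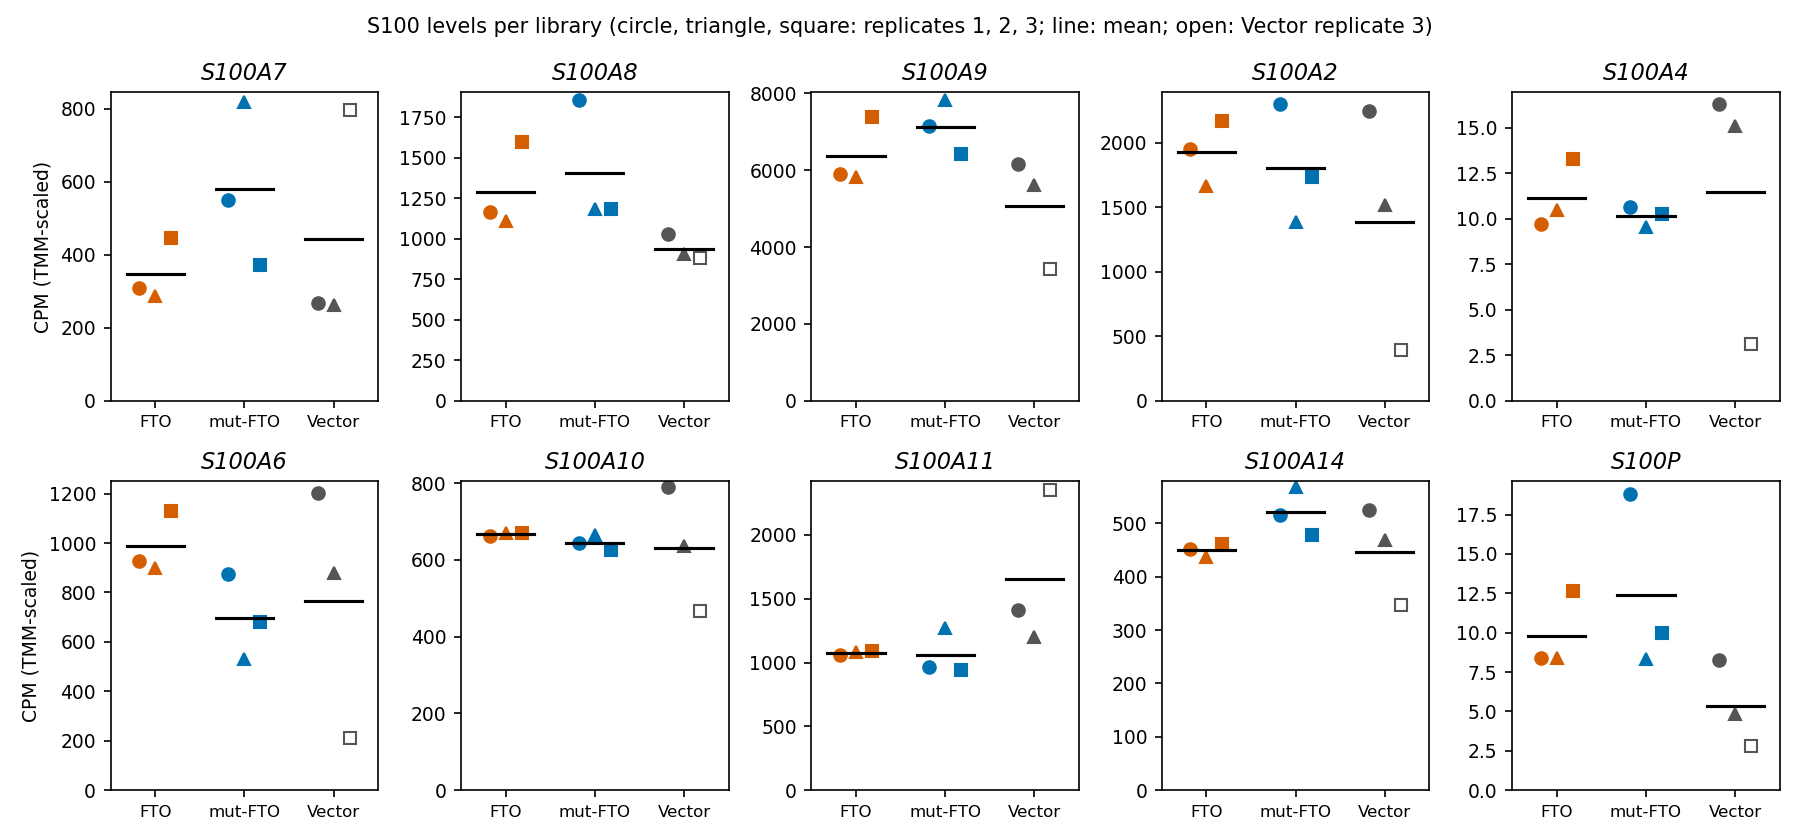
Levels of the 10 S100 genes in CPM (vertical axis, from 0) in each library of FTO, mut-FTO and Vector, with lines at the group means. Vector replicate 3 lies far from the other Vector libraries for S100A7, S100A2, S100A4, S100A6 and S100A11, as with S100A6 at 210.3 CPM against 1200.5 and 880.2.

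S100A7, psoriasin, is a keratinocyte alarmin that acts against bacteria by binding zinc. It had 309, 287 and 446 CPM in FTO libraries and 550.4, 819 and 372 CPM in mut-FTO libraries, against 270, 263 and 798 CPM in Vector libraries. All groups overlapped: Vector replicate 3 was nearly as high as the highest mut-FTO library, the other Vector libraries were below all others, and FTO replicate 3 was above mut-FTO replicate 3. The log2 fold change was −0.35 in FTO against Vector (SE 0.40; adjusted p = 0.759, edgeR quasi-likelihood test), 0.39 in mut-FTO against Vector (adjusted p = 0.636) and −0.74 in FTO against mut-FTO (adjusted p = 0.452). Without Vector replicate 3 it was 0.36 in FTO against Vector (adjusted p = 0.613) and 1.12 in mut-FTO against Vector (SE 0.34; adjusted p = 0.0732). In FTO against mut-FTO it was then −0.76 (SE 0.30, edgeR adjusted p = 0.168). Without mut-FTO replicate 2, its highest library, the value in mut-FTO against Vector was 0.065 (edgeR adjusted p = 0.963). With both Vector replicate 3 and mut-FTO replicate 2 left out, that value was 0.77 (edgeR adjusted p = 0.0921). S100A7 and S100A7A are near-identical, and how reads were shared between them is not known. S100A7A had 50.5, 54.8 and 64.9 CPM in FTO libraries, 84.0, 91.7 and 109 CPM in mut-FTO libraries and 48.2, 85.9 and 114 CPM in Vector libraries. FTO and mut-FTO did not overlap for S100A7A, and the difference of −0.74 did not pass (edgeR adjusted p = 0.192) unless Vector replicate 3 was left out (log2 −0.75, edgeR adjusted p = 0.0127).

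S100A8 and S100A9 form calprotectin, which starves microbes of zinc and manganese. S100A8 had 1162, 1113 and 1597 CPM in FTO libraries and 1857, 1183 and 1184 CPM in mut-FTO libraries, against 1028, 908 and 880.1 CPM in Vector libraries. Every library of both groups was above every Vector library. Of all genes, 10.1% were higher without overlap in FTO against Vector and 12.2% in mut-FTO against Vector. The S100A8 log2 fold change was 0.46 in FTO against Vector (SE 0.21; edgeR adjusted p = 0.426) and 0.58 in mut-FTO against Vector (SE 0.21; edgeR adjusted p = 0.128).

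S100A9 was the most abundant member, with 5906, 5828 and 7367 CPM in FTO libraries and 7140.4, 7809 and 6412 CPM in mut-FTO libraries, against 6162, 5620.1 and 3425 CPM in Vector libraries. The mut-FTO libraries were all above the Vector libraries, and the FTO libraries overlapped with them. Its log2 fold change was 0.33 in FTO against Vector (SE 0.22; edgeR adjusted p = 0.588) and 0.49 in mut-FTO against Vector (SE 0.22; edgeR adjusted p = 0.229). Without Vector replicate 3 these were 0.089 and 0.26. The partners' counts kept no fixed ratio: S100A8 counts divided by S100A9 counts gave 0.197, 0.191 and 0.217 in FTO libraries and 0.260, 0.152 and 0.185 in mut-FTO libraries, against 0.167, 0.162 and 0.257 in Vector libraries. The ratio overlapped between all groups. Vector replicate 3 lay above every FTO library, and the other Vector libraries lay below every FTO library. Between FTO and mut-FTO, S100A8 differed by −0.13 and S100A9 by −0.16 on the log2 scale (edgeR adjusted p = 0.866 and 0.827).

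**Figure D2:**
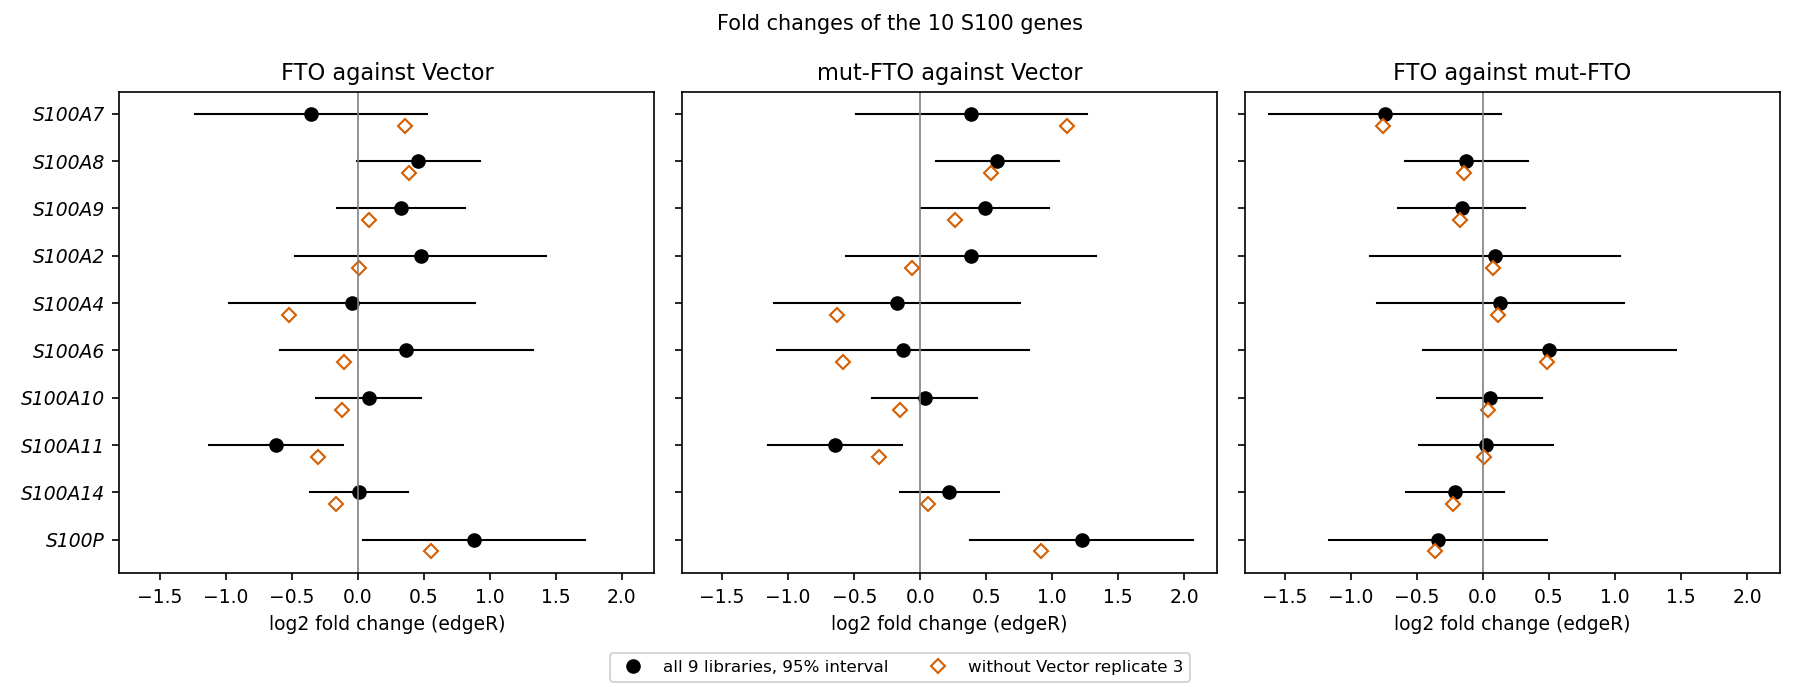
Log2 fold changes (horizontal axis) of the 10 members with 95% intervals in the 3 comparisons, and open diamonds for the values without Vector replicate 3. No member passed the test with all libraries. S100A4 in mut-FTO against Vector lies at −0.18 with all libraries and at −0.63 without Vector replicate 3.

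S100A2, S100A4 and S100A6 were each over 2-fold lower in Vector replicate 3 than in the other Vector libraries. S100A2, known from basal keratinocytes, had 1950.1, 1670 and 2167 CPM in FTO libraries and 2299.5, 1390.4 and 1732 CPM in mut-FTO libraries, against 2244, 1516 and 396 CPM in Vector libraries. Its groups overlapped in every comparison, and Vector replicate 3 was 4.74-fold lower than the mean of the other Vector libraries. Its log2 fold change was 0.48 in FTO against Vector (edgeR adjusted p = 0.693) and 0.38 in mut-FTO against Vector (edgeR adjusted p = 0.67). Without that library both were near 0, at 0.013 and −0.064.

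S100A6, calcyclin, binds CACYBP and is known from proliferating cells. It had 929, 899 and 1131 CPM in FTO libraries and 876, 533 and 682 CPM in mut-FTO libraries, against 1200.5, 880.2 and 210.3 CPM in Vector libraries. All FTO libraries were above all mut-FTO libraries, as for 14.8% of all genes, and both groups overlapped with Vector. The log2 fold change was 0.50 in FTO against mut-FTO (SE 0.44; edgeR adjusted p = 0.691), 0.37 in FTO against Vector (edgeR adjusted p = 0.77) and −0.13 in mut-FTO against Vector (edgeR adjusted p = 0.899). Leaving out Vector replicate 3, it was −0.10 in FTO against Vector (edgeR adjusted p = 0.817) and −0.59 in mut-FTO against Vector (edgeR adjusted p = 0.0516). In FTO against mut-FTO it was then 0.49, with a smaller error (SE 0.17, edgeR adjusted p = 0.092). Fitted on only the 6 libraries compared, S100A6 differed by 0.50 in FTO against mut-FTO (SE 0.16, edgeR adjusted p = 0.0622).

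S100A4, metastasin, binds non-muscle myosin and is a marker of motile and mesenchymal cells. It was low in all libraries: 9.70, 10.5 and 13.3 CPM in FTO libraries and 10.7, 9.57 and 10.3 CPM in mut-FTO libraries, against 16.3, 15.1 and 3.10 CPM in Vector libraries. Vector replicates 1 and 2 were above every other library and Vector replicate 3 was below every other library. The log2 fold change with all libraries was −0.043 in FTO against Vector (SE 0.43; edgeR adjusted p = 0.98) and −0.18 in mut-FTO against Vector (SE 0.43; edgeR adjusted p = 0.858). Without Vector replicate 3 it fell by 0.63 in mut-FTO against Vector (SE 0.17; edgeR adjusted p = 0.0209). In FTO against Vector it was then −0.52 (SE 0.17; edgeR adjusted p = 0.121). That call in mut-FTO rests on 1 excluded library, where 15% of all genes were called too. In the GENCODE annotation the span of S100A4 overlaps that of S100A3 on the same strand, so its reads are uncertain.

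S100A10, S100A11 and S100A14 were the steadiest members within FTO. S100A10 (p11), the partner of annexin A2, had 663, 670.0 and 669.8 CPM in FTO libraries and 643, 664 and 625 CPM in mut-FTO libraries, against 788, 635 and 466 CPM in Vector libraries. The Vector libraries enclosed those of both other groups, and the log2 fold change was 0.083 in FTO against Vector and 0.032 in mut-FTO against Vector (edgeR adjusted p = 0.895 and 0.942), with a 95% interval of −0.32 to 0.48 in FTO. With Vector replicate 3 left out these were −0.12 and −0.15 (edgeR adjusted p = 0.64 and 0.448). S100A14, a membrane-associated member of epithelia, had 452, 437 and 461 CPM in FTO libraries and 516, 568 and 478 CPM in mut-FTO libraries, against 525, 469 and 348 CPM in Vector libraries. The FTO libraries were all below the mut-FTO libraries, as for 14.2% of all genes, and both overlapped with Vector. The log2 fold change of S100A14 was −0.21 in FTO against mut-FTO (SE 0.17, edgeR adjusted p = 0.659). Without Vector replicate 3 that value was −0.23 (SE 0.11, edgeR adjusted p = 0.196).

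S100A11, the partner of annexin A1 and a component of the cornified envelope, had 1056, 1086 and 1087 CPM in FTO libraries and 968, 1267 and 942 CPM in mut-FTO libraries, against 1412, 1200.1 and 2349.9 CPM in Vector libraries. All FTO libraries were below all Vector libraries, as for 10.9% of genes, and mut-FTO replicate 2 overlapped with Vector. The log2 fold change was −0.62 in FTO against Vector (SE 0.23; edgeR adjusted p = 0.32) and −0.64 in mut-FTO against Vector (SE 0.23; edgeR adjusted p = 0.125). Vector replicate 3 was 1.80-fold above the mean of the other Vector libraries here, and without it these values were −0.30 and −0.31 (edgeR adjusted p = 0.24 and 0.146).

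S100P, a RAGE ligand named for placenta and high in many carcinomas, was low in all libraries, with 8.39, 8.42 and 12.6 CPM in FTO libraries and 18.8, 8.35 and 9.997 CPM in mut-FTO libraries, against 8.27, 4.87 and 2.82 CPM in Vector libraries. All libraries of both groups were above all Vector libraries, but the margin to Vector replicate 1 was small. The raw counts behind these values ran from 100 to 696. The log2 fold change was 0.88 in FTO against Vector (SE 0.39; edgeR adjusted p = 0.402) and 1.22 in mut-FTO against Vector (SE 0.39; edgeR adjusted p = 0.0796). Without Vector replicate 1 the value in mut-FTO against Vector was 1.69 and passed (edgeR adjusted p = 0.0166), where 1270 genes were called. With Vector replicate 3 left out the value was 0.91 (edgeR adjusted p = 0.121). Without mut-FTO replicate 1, the highest library, it was 0.79 (edgeR adjusted p = 0.3).

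**Figure D3:**
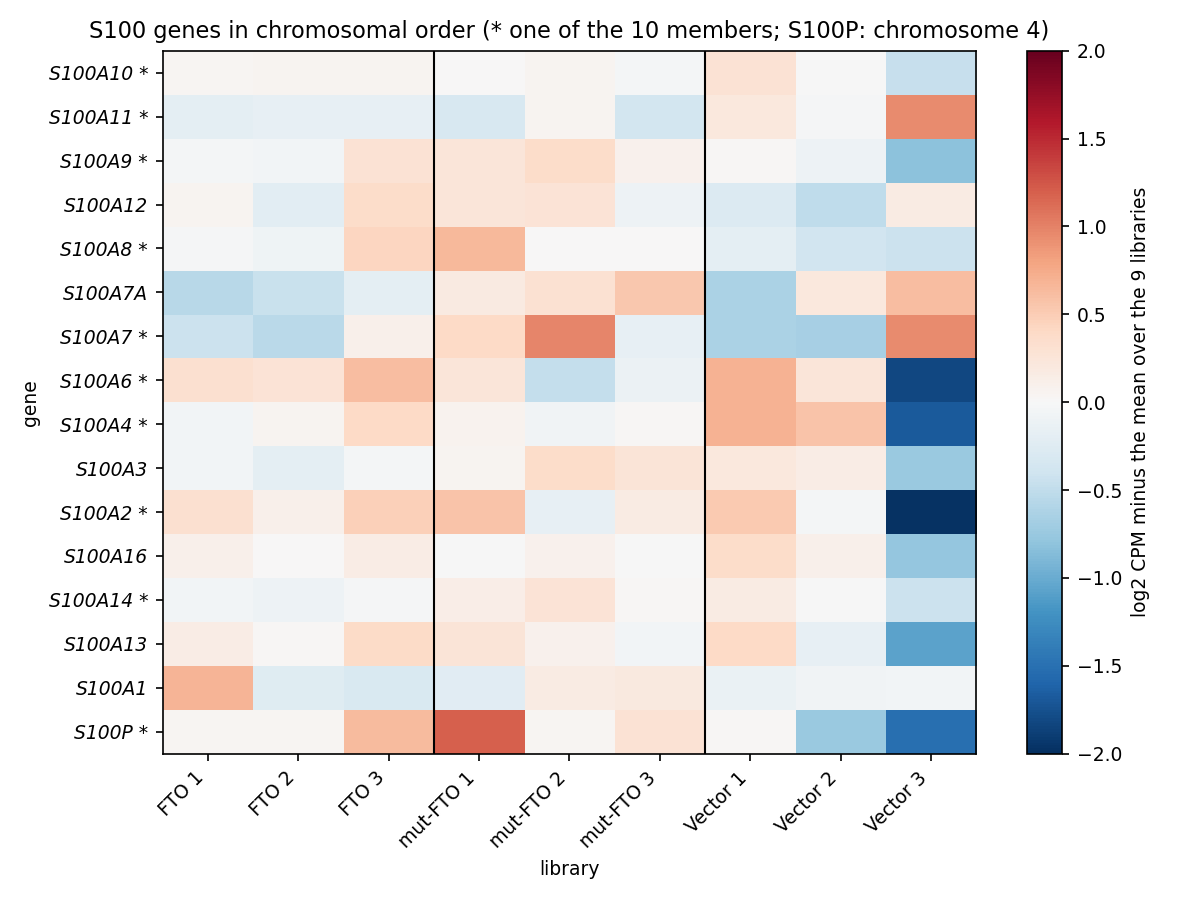
Log2 CPM of the 16 tested S100 genes centred on each gene's mean over 9 libraries, with genes in chromosomal order and S100P last. Colour gives the difference in log2 units. The column of Vector replicate 3 is lowest for S100A2, S100A6, S100A4, S100P (−1.51) and S100A13 (−1.07), and highest for S100A11 and S100A7.

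Per kilobase of annotated transcript, which lets genes be compared, S100A9 ranked highest, with a median of 10680 CPM per kilobase over the 9 libraries. S100A8 followed at 2223, S100A11 at 1830.4, S100A2 at 1736 and S100A6 at 1308. S100A7 stood at 776, S100A10 at 551 and S100A14 at 385, and S100A4 and S100P were far lower at 17.5 and 6.56. Lengths are those of annotation, not of the transcripts in these cells. For S100P, S100A14 and S100A10 the transcript used starts 809, 661 and 531 bases from the RefSeq start. Their values per kilobase therefore depend on the annotation chosen.

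In profile over the 9 libraries, the closest pair of members was S100A10 and S100A14, with a root mean square difference of centred log2 CPM of 0.124. S100A9 and S100A14 (0.183), S100A9 and S100A10 (0.224) and S100A2 and S100A6 (0.227) followed, S100A8 and S100A9 differed by 0.262, and S100A7 and S100A6 differed most (1.24). Outside the family, among 8159 genes with at least 10 CPM on average, the genes closest to S100A7 were RPL36A (0.196), TTLL5 and SMC6, and those closest to S100A8 were PSMA3 (0.126), NDUFS4 and RBX1. For S100A9 they were POLR2I (0.0891), MAD2L2 and VAMP8, and for S100P they were COX7C (0.228), NDUFA2 and ROMO1. These distances describe 9 libraries that include Vector replicate 3.

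Between Vector replicate 3 and the other Vector libraries, S100A2, S100A4, S100A6 and S100P were lower by over 2-fold (4.74, 5.06, 4.95 and 2.33-fold) and S100A7 was 2.995-fold higher. Of all genes, 11% were lower and 8.82% higher by that measure. Genes with transcripts up to 1000 bases had a median log2 difference of −0.64 (619 genes), those above 4000 bases 0.31 (4471 genes). Most S100 transcripts are short, at 479 to 1279 bases, and S100A7, the shortest, was higher. The part of transcript length in these values was not tested.

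**Figure D4:**
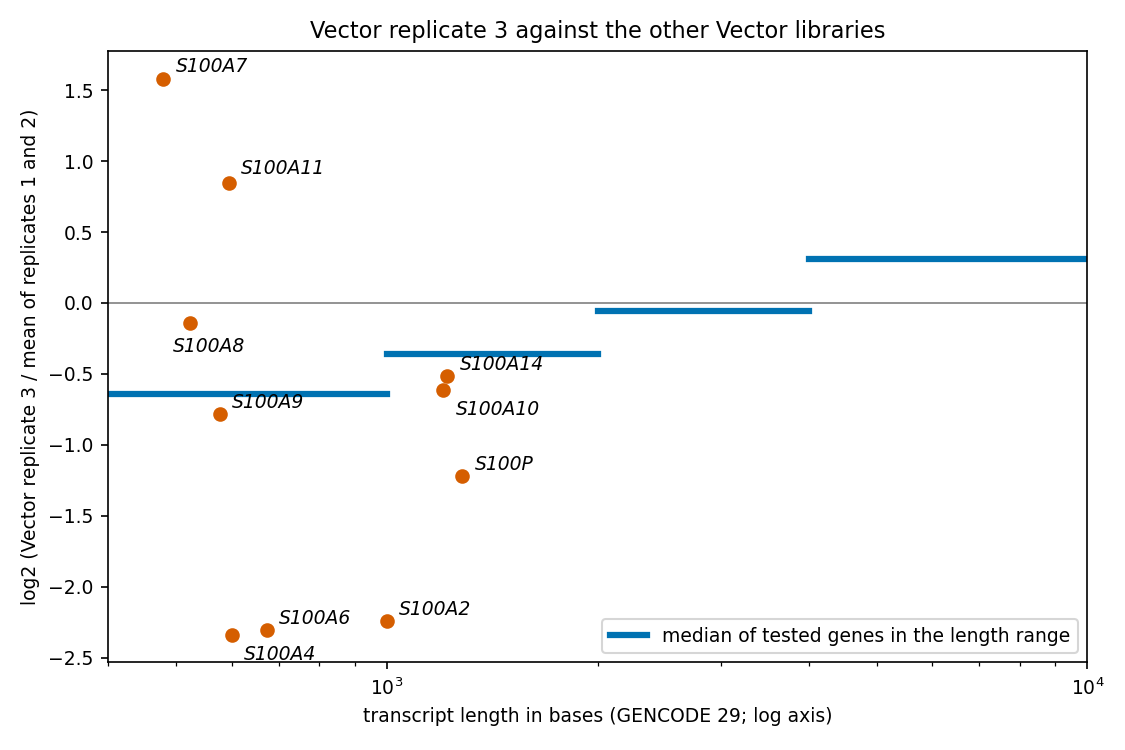
Log2 difference of Vector replicate 3 from the mean of the other Vector libraries (vertical axis) against annotated transcript length in bases (log axis), with points for the 10 S100 members and bars for the median of tested genes in each length range. These medians go from −0.64 for transcripts up to 1000 bases to 0.31 above 4000 bases, and the members lie between −2.34 and 1.58.

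Of 11 other S100 genes, 6 were tested and none passed in any comparison with all libraries. S100A16 averaged 608 ± 30.3 CPM in FTO libraries, 581 ± 21.9 in mut-FTO libraries and 561 ± 205 in Vector libraries (SD, n = 3 each). The 4 genes S100A7L2, S100G, S100B and S100Z had no count. Of 7 S100 fused-type genes, which include filaggrin and trichohyalin, 3 were tested and 0 passed, and of 12 receptors of S100 proteins 7 were tested and 0 passed. Among 24 tested annexins and other partners, 0 rose and 1 fell in FTO against Vector, 2 fell in mut-FTO against Vector, and 1 rose and 0 fell in FTO against mut-FTO. TGM2, a transglutaminase that crosslinks proteins, had 36.8, 34.6 and 32.8 CPM in FTO libraries and 11.5, 19.1 and 14.3 CPM in mut-FTO libraries, against 83.2, 89.1 and 62.7 CPM in Vector libraries. The 3 groups did not overlap, and TGM2 fell by 1.17 on the log2 scale in FTO (edgeR adjusted p = 0.0225) and by 2.39 in mut-FTO (edgeR adjusted p = 3.54e-05). TGM2 was higher by 1.22 in FTO against mut-FTO (edgeR adjusted p = 0.0102). PLAT, tissue plasminogen activator, fell by 1.10 in mut-FTO against Vector (edgeR adjusted p = 0.00325).

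Of 30 transcriptional regulators of these genes, 0 passed in FTO against Vector and 0 in FTO against mut-FTO. In mut-FTO against Vector 1 rose and 1 fell: GRHL3, a factor of epidermal differentiation, by 1.41 and FOSL1, a subunit of AP-1, which fell by 1.61 on the log2 scale (edgeR adjusted p = 0.00304 and 0.00591). Of 25 cytokine and receptor genes, 0 rose and 1 fell in FTO against Vector, 1 rose and 3 fell in mut-FTO against Vector, and 2 rose and 1 fell in FTO against mut-FTO. IL1B, which induces S100A7 and S100A8 in keratinocytes, fell by 0.92 in FTO (edgeR adjusted p = 0.015) and by 3.13 in mut-FTO (edgeR adjusted p = 4.79e-07). IL1A fell by 3.06 in mut-FTO (edgeR adjusted p = 7.05e-05). LIFR also fell in mut-FTO against Vector (log2 −4.04, edgeR adjusted p = 0.0294). Its counts were only 0, 2 and 0 in mut-FTO libraries and 12, 15 and 14 in Vector libraries. IL17RE rose in mut-FTO against Vector (log2 1.53, edgeR adjusted p = 0.0143), at 0.885 to 5.94 CPM over the libraries. Without Vector replicate 3 the regulators that rose and fell numbered 0 and 1 in FTO against Vector, 3 and 4 in mut-FTO against Vector, and 4 and 4 in FTO against mut-FTO. Over all genes, the share called in these comparisons was then 3.41%, 15% and 10.2%, against 0.744%, 7.78% and 2.33% with all libraries. The S100 receptors then had 1 rise and 1 fall in mut-FTO against Vector.

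All 10 keratinocyte markers had enough counts to be tested. Their summed level was 19449.6 to 20166 CPM in FTO libraries, 23339 to 30076 in mut-FTO libraries and 15162 to 20571 in Vector libraries. In mut-FTO against Vector KRT5, KRT14 and KRT15 rose (log2 0.69, 0.91 and 1.31) and the other 7 were not called, with a median log2 fold change of 0.072 over the 10. Of the 10, 3 rose and 1 fell without Vector replicate 3. S100A8 and S100A9 are also abundant in neutrophils and monocytes. Of 14 markers of those cells, 3 were tested (ITGAM, CD14 and S100A12), and MPO, ELANE, FCN1 and LILRB2 had no count in any library. The summed level of the list was 45.01 to 56.7 CPM in FTO libraries and 60.0 to 67.6 in mut-FTO libraries. In Vector libraries it was 38.1 to 46.0 CPM. Most of it came from S100A12, itself an S100 gene, and CD14, as with 32.6 and 15.3 CPM in FTO replicate 1. CD14 rose in mut-FTO against Vector (log2 1.01, edgeR adjusted p = 0.006). Of 9 T cell and Langerhans cell markers, 8 had no count. Of 9 fibroblast markers 4 were tested, and the summed level of the list was 5.68 to 8.07 CPM in FTO libraries, 9.73 to 10.8 in mut-FTO libraries and 9.15 to 10.01 in Vector libraries. The median log2 fold change of the 4 was 0.35 in FTO against Vector and −0.081 in mut-FTO against Vector. The other 3 were not called and DCN, at no more than 3.14 CPM in any library, rose in FTO and mut-FTO against Vector (edgeR adjusted p = 0.048 and 0.0013). Of 7 melanocyte and 6 endothelial markers, 2 and 1 were tested and 0 passed. With Vector replicate 3 left out the endothelial marker, CDH5, fell by 3.10 in mut-FTO against Vector (edgeR adjusted p = 0.0233), at no more than 1.57 CPM in any library, and 1 fibroblast marker fell in FTO against Vector. In bulk RNA, fewer cells of a type and less RNA per cell cannot be told apart.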

How the data were processed

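The authors deposited raw counts, 1 whole number for each gene and library. HISAT2, StringTie and mm10, a mouse build, are named per the submitters' processing notes, although the symbols are human, so no coordinates came from the table; the counter and its strand setting are not known here. Columns were matched to groups by their letters, and only the letters tell FTO from mut-FTO. Counts were tested in edgeR 4.0.16 (R 4.3.3): filterByExpr (minimum count 10, total 15; 13713 genes kept), TMM scaling, 1 robust quasi-likelihood model over 9 libraries, and Benjamini-Hochberg adjustment over all genes, with calls below 0.05. CPM are TMM-scaled. Log2 CPM used a prior count of 2. The code was tested on simulated data. Members and lists were chosen with earlier results of these data known. Beyond members, FTO and FN1, the rule names list genes called (up to 4 a comparison by p, otherwise the 2 most abundant) and the 3 genes nearest in profile to S100A7, S100A8, S100A9 and S100P. A gene that this rule takes is not reported here. Alternatives used DESeq2 1.42.0 and limma 3.58.1. Promoters are from RefSeq, lengths from GENCODE. Genes sharing reads with copies or overlapping others are uncertain. Intervals cover the spread between libraries.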

Additional observations from a re-analysis of the deposited data

How the results depend on the processing

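Across the fold changes of the 10 members, 270 values from settings other than leaving out 1 library kept their direction and side of the threshold in 252 cases, passed it in 3 and reversed in 15. Leaving out each library in turn gave 246, 2 and 22 of 270. The cause of the changes was not tested. For FTO against Vector, then mut-FTO against the same control, then FTO against mut-FTO, the genes called numbered 364, 1680 and 751 with DESeq2, 41, 621 and 1218 with only the 6 libraries compared, and 1050, 2401 and 1196 without both Vector replicate 3 and mut-FTO replicate 2. Leaving out 1 library gave 27 to 476, 609 to 2089 and 71 to 1427. With the replicate number as a block, 67 genes were called in FTO against Vector, and 813 and 222 in the other comparisons. The deviations of same-numbered libraries from their group means correlated between −0.127 and 0.106. With 3 libraries a group and Vector replicate 3 apart, these values cannot tell whether such libraries share more than a number. In mut-FTO against Vector 1 member was called with DESeq2 (S100P, log2 1.21, DESeq2 adjusted p = 0.0224), where 1680 genes were called. Without both libraries 2 members were called, where 2401 genes were called. These were S100A4 (−0.61, edgeR adjusted p = 0.0289) and S100A11 (−0.48, edgeR adjusted p = 0.00448). With 1 library left out 0 to 1 members were called. Those single calls were S100P without Vector replicate 1 (1270 genes called) and S100A4 without Vector replicate 3 (2089 genes called, 15% of 13953).

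Directions reversed as follows. In FTO against Vector S100A14 was −0.0078 with RLE factors, −0.027 with library size alone and −0.0078 with DESeq2, and S100A4 was 0.27 with limma-voom and 0.096 with the replicate block. Without both libraries S100A7 was 0.37, S100A6 −0.091, S100A10 −0.11 and S100A14 −0.16. In mut-FTO against Vector S100A10 was −0.043 with library size alone, limma-voom gave 0.16 for S100A4 and 0.17 for S100A6, and without both libraries S100A10 was −0.19 and S100A14 −0.025. In FTO against mut-FTO S100A2 was −0.053 without both libraries. With 1 library left out, log2 fold changes in FTO against Vector ran from −0.62 to 0.36 for S100A7, −0.52 to 0.30 for S100A4, −0.10 to 0.86 for S100A6, −0.12 to 0.28 for S100A10 and −0.17 to 0.14 for S100A14. In mut-FTO against Vector they ran from −0.064 to 0.92 for S100A2, −0.63 to 0.16 for S100A4, −0.59 to 0.35 for S100A6 and −0.15 to 0.23 for S100A10. In FTO against mut-FTO they ran from −0.33 to 0.13 for S100A8, −0.070 to 0.31 for S100A2, −0.027 to 0.23 for S100A4, −0.053 to 0.17 for S100A11 and −0.58 to 0.098 for S100P. S100P and S100A4 had the lowest counts of the members, down to 100 and 110 in a library. The part of depth in their spread was not tested.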
